A study of Homo sapiens with 4 samples.

Results

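A skipped exon whose length is a multiple of 3 can be kept or left out without moving the reading frame of the exons that follow it. The exons described here were all such cases among skipped exons longer than 27 bases for which Ensembl already annotates both forms, with at least 1 Ensembl transcript that keeps the exon and at least 1 that skips it. They are called frame-preserving exons below. Of 287868 distinct alternative splicing events over all libraries, 52301 were skipped exon events, and 10207 of these were frame-preserving by that rule. They covered 9582 distinct exons in 5377 genes, of which 5135 could be given 1 gene symbol. The closest comparison is with 14725 annotated skipped exon events of the same minimum length that are not divisible by 3, in 6626 genes, called frame-shifting below. Applied to the listed events, the rule uses length and annotation only, and no measured value. An event must be on the list of at least 1 library to be counted.

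The study asked how transcripts change after knockdown of STAMBPL1, a deubiquitinase related to STAMBP, which acts in endosomal sorting. Full-length cDNA of Huh7, a hepatocellular carcinoma line grown in DMEM with serum, was read on a PacBio Sequel instrument. The libraries were siSTAMBPL1, transfected with an siRNA against STAMBPL1 (n = 2), and siNC, transfected with a negative control siRNA (n = 2). All 4 were transfected with the same lipofection reagent. The siRNA sequences, the time after transfection and whether replicates came from separate cultures are not given in the labels, so p-values measure only the spread between these libraries, which may be technical.

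Reading frame is set in steps of 3 bases, so an exon of any other length shifts it when skipped and usually brings an early stop codon, which can mark the transcript for nonsense-mediated decay. A frame-preserving exon adds or removes a short stretch of protein. Many known examples insert a peptide into a binding surface, a linker or a segment that carries modification sites, in receptors, adaptors, cytoskeletal proteins and RNA-binding proteins. Divisibility by 3 does not show that an exon is coding. The non-coding RNA PVT1, for example, held 13 of the distinct exons.

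The sequences of a few of these exons could be read because they lie whole inside the promoter window of a RefSeq gene, often another gene that overlaps them. RefSeq sequences of GRCh38.p14, the assembly of hg38, held 12 distinct frame-preserving exons in this way. The 4 shown were taken to display what such an exon looks like, from short to long. Letters run from the 5′ end on the strand of the gene, the capitals are the last 2 intron bases before and the first 2 intron bases after the exon, and the coordinates are those of the exon itself.
KIF21A, a kinesin motor, chr12:39315932-39315970, minus strand, 39 bases: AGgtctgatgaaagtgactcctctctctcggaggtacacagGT
CD55, an inhibitor of complement at the cell surface, chr1:207322236-207322289, plus strand, 54 bases: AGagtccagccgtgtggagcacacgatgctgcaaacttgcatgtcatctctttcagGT
CD82, a tetraspanin, chr11:44605355-44605429, plus strand, 75 bases: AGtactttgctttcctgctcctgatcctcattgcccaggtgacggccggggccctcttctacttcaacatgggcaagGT
TAFAZZIN, an enzyme of cardiolipin remodelling, chrX:154412086-154412214, plus strand, 129 bases: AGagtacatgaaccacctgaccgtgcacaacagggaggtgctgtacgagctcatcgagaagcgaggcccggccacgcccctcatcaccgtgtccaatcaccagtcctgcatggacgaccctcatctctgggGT
Of the 12, 9 were bounded by AG before and GT after, and 3 by AG and GC, while all 44 frame-shifting exons that could be read the same way were bounded by AG and GT. The CD55 exon had no stop codon in any of its 3 frames, and the exons of KIF21A, CD82 and TAFAZZIN had none in 2 of 3. At least 1 frame was free of stop codons in 9 of the 12 frame-preserving exons and in 37 of the 44 frame-shifting ones.

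The deposited lists name transcripts and give no read numbers. Each event lists the transcripts that carry each form, either Ensembl transcripts or transcripts whose names begin with PB, which were built from the long reads of that library and are called long-read transcripts here. An event is an exon with its 2 neighbouring exons, so an exon that joins to other neighbours is a further event, and the numbers given for an exon are those of 1 event unless stated. Of the 9582 exons, 556 were in 2 or more events. A number of long-read transcripts counts distinct models, not molecules. How reads that matched an Ensembl transcript were named is not given, so they may not be among these models. In CD55, the exon printed above was kept by 1 and 0 long-read transcripts in the siSTAMBPL1 libraries and by 0 and 0 in the siNC libraries. It was skipped by 5 and 5 in the siSTAMBPL1 libraries and by 9 and 10 in the siNC libraries, so the skipping models outnumbered the inclusion models in every library. The CD82 exon was kept by 3 and 0 in the siSTAMBPL1 libraries and by 1 and 2 in the siNC libraries, and that of TAFAZZIN by 6 and 1 in the siSTAMBPL1 libraries and by 2 and 2 in the siNC libraries. No long-read transcript skipped either exon. The KIF21A exon was listed in siNC replicate 1 only, through 1 transcript that skips it.

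The libraries differed in size. The siSTAMBPL1 libraries held 119505 and 94432 events of all types and 25463 and 17584 long-read transcripts, against 140317 and 142215 events and 32307 and 32750 long-read transcripts in the siNC libraries. STAMBPL1 itself had 1 and 1 events in the siSTAMBPL1 libraries and 3 and 6 in the siNC libraries, and none of them was a frame-preserving exon. Of 14 hepatocyte marker genes, 3 had any event, among them FGG and HNF4A. ALB, AFP, APOA1 and the other 8 had none in any library. A gene appears on a list only if it has an alternative event, so the lists alone do not check the label. Markers of leukocytes, endothelial cells and fibroblasts or stellate cells had 0 to 6 events per cell type and library, and those of squamous or basal epithelium had none.

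Frame-preserving exons were fewer on the siSTAMBPL1 lists. These lists held 8386 and 7832 of them in the siSTAMBPL1 libraries, against 8731 and 8834 in the siNC libraries. The siSTAMBPL1 libraries averaged 8109 ± 391.7 and the siNC libraries 8782.5 ± 72.8 (SD, n = 2 each), a difference of -673.5 and a ratio of 0.923 (exact two-sided permutation p = 0.333, the smallest that 2 libraries against 2 allow). Both siSTAMBPL1 libraries lay below both siNC libraries. The ratio was 0.917 for frame-shifting exons, 0.649 for skipped exon events that Ensembl does not annotate in both forms, and 0.662 for long-read transcripts. Per 1000 long-read transcripts the order of the groups turned: 329.3 and 445.4 frame-preserving exons in the siSTAMBPL1 libraries, against 270.3 and 269.7 in the siNC libraries. The part that library size has in the difference was not tested.

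Most of these exons were listed repeatedly. All 4 libraries listed 6669 of the 10207 (65.3%), against 63.3% of frame-shifting exons and 3.72% of unannotated skipped exon events. An unannotated event holds a long-read transcript of its library by definition, since at least 1 of its forms has no Ensembl transcript. Of listed frame-preserving exons, which have no such requirement, 63.6% to 71.2% held one. The listing of annotated and unannotated events is thus not alike, and a listing does not show that both forms were found. A single library listed 12.1% of frame-preserving exons. Both siSTAMBPL1 libraries and neither siNC library listed 105 of them, or 1.03%, where the same pattern held for 1.09% of all events and 1.03% of frame-shifting exons. The opposite pattern, both siNC libraries alone, held for 359, or 3.52%, against 3.44% of all events and 3.27% of frame-shifting exons. Pairs that mix the groups listed 186, 189, 108 and 98 on their own. The shares of frame-preserving exons listed in 1 group thus stood near those of all events.

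Of the 105 events of the siSTAMBPL1 pair, 36 lay in genes with no event of any type in either siNC library. Of the 359 events of the siNC pair, 141 lay in genes with no event in either siSTAMBPL1 library. The matching shares for frame-shifting exons and for all events are not given here, so whether these shares are usual was not tested. Among the events of the siSTAMBPL1 pair with the most long-read transcripts were those of XPNPEP1, a proline aminopeptidase, and CEP164, a protein of the centriole's distal appendages. Others were in PTPRN2, a receptor of the protein tyrosine phosphatase family found on secretory vesicles, and MTO1, which modifies mitochondrial tRNA. Their numbers were low. The 105-base exon of XPNPEP1 (chromosome 10, 109891722 to 109891826) was kept by 0 and 1 and skipped by 2 and 1 long-read transcripts in the siSTAMBPL1 libraries, and no siNC library listed it. The 216-base exon of MTO1 (chromosome 6, 73482029 to 73482244) was kept by 2 and 2 and skipped by none in the siSTAMBPL1 libraries, and again no siNC library listed it.

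The corresponding events of the siNC pair were in SORBS2, an adaptor at actin and adhesion sites, FOXP2, a forkhead transcription factor, and RBPJ, the DNA-binding effector of Notch signalling. Others were in BRME1, a factor of meiotic recombination, and PLEKHA7, a protein of adherens junctions. The event of the 183-base exon of RBPJ (chromosome 4, 26362446 to 26362628) was listed in no siSTAMBPL1 library, and in the siNC libraries the exon was kept by 3 and 2 and skipped by 0 and 1 long-read transcripts. With another upstream exon, the same RBPJ exon was listed in all 4 libraries, kept by 0 and 1 and skipped by 1 and 1 in the siSTAMBPL1 libraries, and kept by 0 and 0 and skipped by 0 and 1 in the siNC libraries. The event of the 51-base exon of FOXP2 (chromosome 7, 114629592 to 114629642) was listed in no siSTAMBPL1 library either, and the exon was kept by 0 and 2 and skipped by 1 and 3 in the siNC libraries. With another downstream exon it was listed in siSTAMBPL1 replicate 2 and siNC replicate 1. The SORBS2 exon was in other events of both groups as well, so these are events of 1 group and not exons of 1 group. Each of these 9 events held 4 to 7 long-read transcripts over its pair of libraries.

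Frame-preserving exons made up a similar share of annotated skipped exons in every library. Of events longer than 27 bases with both forms in Ensembl, 41.2% and 41.8% were divisible by 3 in the siSTAMBPL1 libraries, against 41.3% and 41.3% in the siNC libraries (difference 0.19 percentage points, exact two-sided permutation p = 1). The exact 95% intervals ran from 40.5% to 42.5% over the siSTAMBPL1 libraries and from 40.6% to 41.9% over the siNC libraries; intervals given here cover counting error only. Without siSTAMBPL1 replicate 2 the difference was -0.12 points. Over the series the share was 40.9%, and it was 38.4% among 26376 skipped exon events of that length that Ensembl does not annotate in both forms.

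The share varied with exon length. The frame-preserving exons had a median of 111 bases, with quartiles of 78 and 153 and a range from 30 to 8247. Frame-shifting exons had a median of 116 bases. The share divisible by 3 was 48.2% among annotated exons of 28 to 60 bases, 42.6% at 61 to 99, 39.0% at 100 to 150, 38.2% at 151 to 300 and 38.3% above 300. Among single lengths, 93 bases was the most common with 277 distinct exons, followed by 96 with 269 and 123 with 257. At the rule's limit of length, 68 events of 30 bases were inside and 83 of 27 bases were outside, of which 41 and 56 were listed in all 4 libraries.

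**Figure D1:**
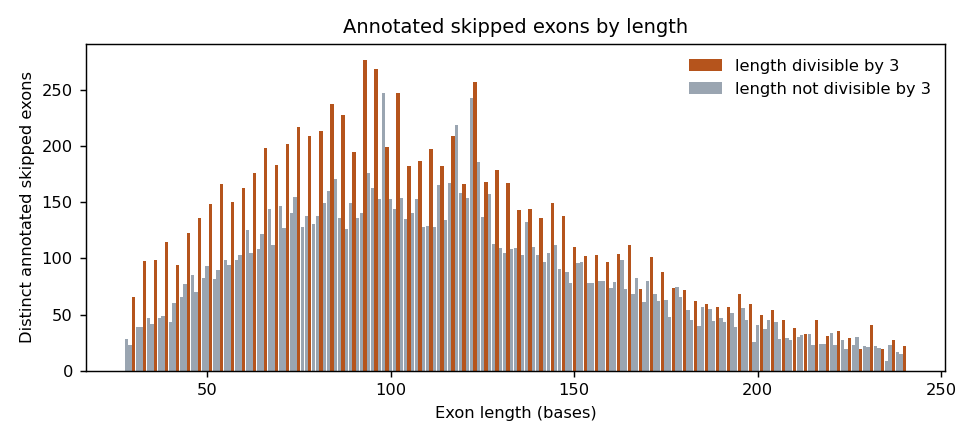
Distinct annotated skipped exons (vertical axis) by exon length in bases (horizontal axis), with lengths divisible by 3 in orange and other lengths in grey. Bars divisible by 3 stand above their neighbours most clearly below 100 bases, with the highest bar at 93 bases (277 exons).

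The surroundings of frame-preserving and frame-shifting exons were alike in size. The shorter of the 2 flanking introns had a median of 1123 bases for frame-preserving and 1066 for frame-shifting exons, and the longer one 4067 and 4201 bases. The annotation leaned more to inclusion for frame-preserving exons: 40.1% of them had more Ensembl transcripts that keep the exon than skip it, against 35.2% of frame-shifting exons. Most genes held few of them. There were 3023 genes with 1 distinct frame-preserving exon, 1362 with 2 and 992 with 3 or more.

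Genes with many were SYNE1, the giant nesprin that links the nucleus to actin, with 13 distinct exons, PVT1 with 13, and SLMAP, a tail-anchored membrane protein, with 11. CSNK2A1, the catalytic subunit of casein kinase 2, LRP8, a receptor of the LDL receptor family, and EPB41, a protein of the membrane skeleton, had 10 each. SYNE1 had 1 and 13 of its 13 events in the siSTAMBPL1 libraries, against 13 and 13 in the siNC libraries. In EPB41 the numbers were 13 and 12 in the siSTAMBPL1 libraries and 13 and 15 in the siNC libraries. Events of a gene share transcripts and are not independent.

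Long-read transcripts carried at least 1 form of most listed frame-preserving exons, and both forms of a much smaller share. A long-read transcript in at least 1 form was present for 68.1% and 63.6% of listed frame-preserving exons in the siSTAMBPL1 libraries, against 70.4% and 71.2% in the siNC libraries. Both forms had one for 15.3% and 11.7% in the siSTAMBPL1 libraries, against 17.6% and 17.6% in the siNC libraries (exact two-sided permutation p = 0.333). The siSTAMBPL1 libraries, which hold fewer long-read transcripts, lay below the siNC libraries in both measures. Over the 4 libraries, 395 exons had both forms in long-read transcripts in all of them, 415 in 3, 601 in 2, 1257 in 1 and 7539 in none.

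**Figure D2:**
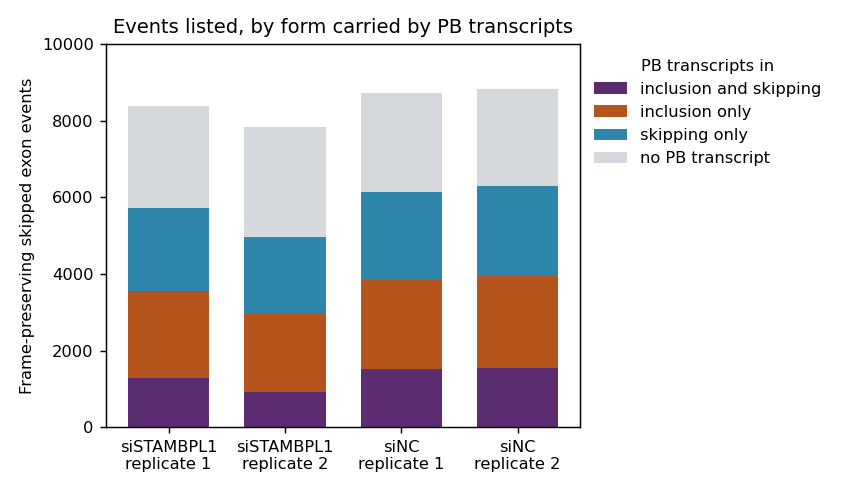
Number of frame-preserving skipped exon events listed in each library (vertical axis), split by the form that long-read (PB) transcripts carry. Totals are 8386 and 7832 in the siSTAMBPL1 libraries and 8731 and 8834 in the siNC libraries; the events with both forms number 1279 and 913 in siSTAMBPL1 and 1535 and 1557 in siNC.

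Frame-preserving exons were more common among exons with long-read transcripts in both forms. This sorting counts long-read transcripts only, so an exon with none in a form may still have that form through an Ensembl transcript. With no long-read transcript, 39.7% and 40.5% of annotated skipped exons were frame-preserving in the siSTAMBPL1 libraries, against 39.8% and 39.2% in the siNC libraries. With long-read transcripts in both forms, the share was 46.3% and 46.7% in the siSTAMBPL1 libraries, against 46.4% and 45.7% in the siNC libraries. With 2 or more long-read transcripts in each form it was 49.8% and 54.3% in the siSTAMBPL1 libraries, against 49.3% and 50.2% in the siNC libraries. The exact 95% intervals of the last class were wide, for example 49.8% to 58.8% in siSTAMBPL1 replicate 2, where 264 of its exons were frame-preserving and 222 were not. The difference between both forms and no long-read transcript was 6.46 ± 0.225 percentage points (SD, n = 4 libraries) and above 0 in 4 of 4 libraries (exact two-sided sign-flip permutation p = 0.125, the smallest that 4 libraries allow; Benjamini-Hochberg adjusted p = 0.141 over 9 comparisons of this kind). The libraries list largely the same exons, so they do not test the difference on 4 independent sets of exons.

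The same difference was seen within classes of length. It averaged 8.77 points at 28 to 60 bases, 7.39 at 61 to 99, 3.16 at 100 to 150 and 7.86 at 151 to 300, above 0 in 4 of 4 libraries each time. It differed with the number of transcripts that Ensembl annotates. Among exons with 2 or more Ensembl transcripts in both forms it averaged 8.87 points, and among exons with 1 Ensembl transcript in each form 1.47 points, from 0.11 to 2.57 over the libraries.

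**Figure D3:**
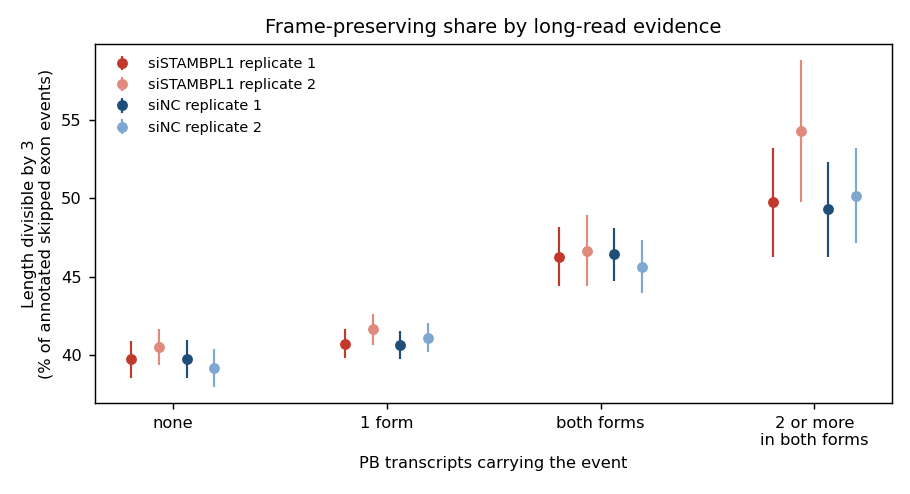
Share of annotated skipped exon events with a length divisible by 3 (vertical axis, percent; the axis does not start at 0) by the long-read (PB) transcripts that carry the event (horizontal axis). Points are single libraries and bars are exact 95% intervals of counting error; in every library the share with both forms (45.7% to 46.7%) lies above the share with none (39.2% to 40.5%).

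Frame-preserving exons were kept in a larger share of long-read transcripts than frame-shifting ones. Summed over frame-preserving exons, 53.5% and 53.1% of long-read transcript entries kept the exon in the siSTAMBPL1 libraries, against 53.0% and 52.9% in the siNC libraries. The siSTAMBPL1 libraries averaged 53.3% ± 0.311 and the siNC libraries 52.9% ± 0.129 (SD, n = 2 each), a difference of 0.36 points (exact two-sided permutation p = 0.333). Frame-shifting exons had 49.1% and 49.3% in the siSTAMBPL1 libraries and 48.2% and 48.5% in the siNC libraries. Frame-preserving exons were thus above frame-shifting ones by 4.35 ± 0.452 points (SD, n = 4 libraries; above 0 in 4 of 4; exact sign-flip permutation p = 0.125, adjusted p = 0.141).

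By the share of exons with any long-read transcript in a form, frame-preserving exceeded frame-shifting exons by 4.01 points for inclusion, 0.88 points for skipping and 2.80 points for both forms, each above 0 in 4 of 4 libraries (exact sign-flip permutation p = 0.125 and adjusted p = 0.141 for each). Within genes that hold both kinds of exon, 2885 to 3219 genes per library, the inclusion difference was 3.20 points and the difference for both forms 2.12 points, again above 0 in 4 of 4. The skipping difference there was -0.22 points, above 0 in 1 of 4 libraries (exact sign-flip permutation p = 0.5). That comparison within genes was chosen after the data were seen.

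Inclusion also varied with length. At 28 to 60 bases, 42.9% and 43.9% of long-read transcript entries kept the frame-preserving exon in the siSTAMBPL1 libraries, against 41.7% and 42.8% in the siNC libraries. At 61 to 99 bases the shares were 53.9% and 54.0% in the siSTAMBPL1 libraries and 53.5% and 53.5% in the siNC libraries, and at 151 to 300 bases they were 59.1% and 58.8% in siSTAMBPL1 and 58.9% and 58.7% in siNC. In each library the share was lowest in the shortest class and highest at 151 to 300 bases. Annotated skipped exons of 27 bases or less, which the rule leaves out, had 23.2% and 23.0% in the siSTAMBPL1 libraries and 22.7% and 21.5% in the siNC libraries.

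**Figure D4:**
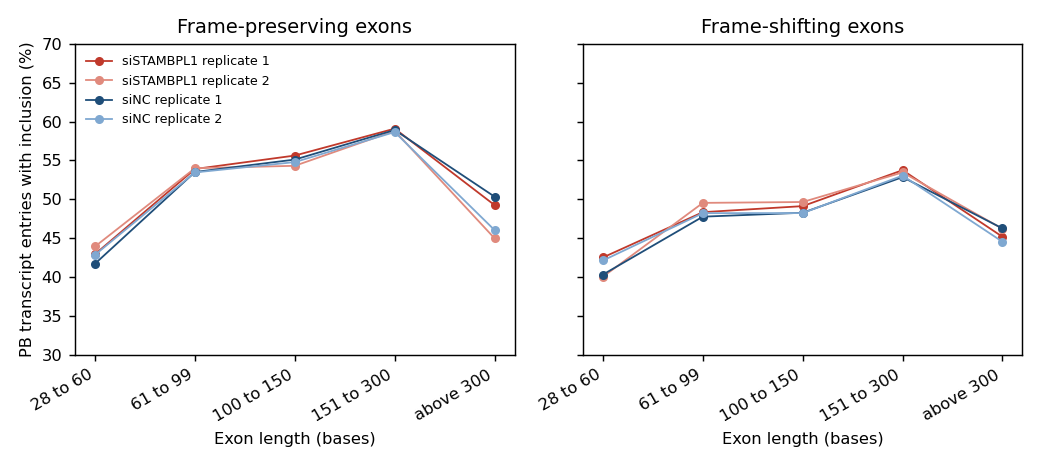
Share of long-read (PB) transcript entries that keep the exon (vertical axis, percent, from 30 to 70) by exon length class (horizontal axis), for frame-preserving exons on the left and frame-shifting exons on the right, with a line per library. From 61 to 300 bases the frame-preserving shares (53.5% to 59.1%) lie above the frame-shifting shares of the same class and library; above 300 bases siSTAMBPL1 replicate 2 has 45.0% for frame-preserving and 46.2% for frame-shifting exons.

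Whether single exons changed in inclusion after knockdown was tested with limma on the log2 ratio of inclusion to skipping long-read transcripts, with a pseudocount of 0.5, over 10984 events of all types that had at least 2 long-read transcripts in each library. Of the 1941 frame-preserving exons tested, 0 passed an adjusted p of 0.05 in either direction, and 0% of all events passed. The smallest limma adjusted p was 0.573. At an unadjusted p under 0.05 there were 94 higher and 89 lower in siSTAMBPL1, or 9.43%. The share was 8.18% of frame-shifting exons, 8.41% of skipped exon events of any kind and 8.38% of all events. The groups did not overlap for 611 frame-preserving exons, or 31.5%, against 31.0% of frame-shifting exons, 31.0% of skipped exon events of any kind and 31.6% of all events. The median log2 change (siSTAMBPL1 minus siNC) was 0.06 over frame-preserving exons, with 1011 above and 884 below 0, and 0 over all events. With 2 libraries against 2 and few transcripts per event, the absence of calls does not show that inclusion was equal.

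The exons with the largest separation between the groups were each based on few transcripts, and none passed. AKAP13, an anchor of protein kinase A, had the largest log2 change, -4.34 ± 0.676 (SE; limma adjusted p = 0.573). Its 54-base exon (chromosome 15, 85658537 to 85658590) was kept by 1 and 0 and skipped by 2 and 2 long-read transcripts in the siSTAMBPL1 libraries, and kept by 3 and 3 and skipped by 0 and 0 in the siNC libraries. With another downstream exon the same AKAP13 exon was kept by 1 and 3 and skipped by 0 and 0 in the siSTAMBPL1 libraries, and kept by 1 and 3 and skipped by 1 and 0 in the siNC libraries, so the change belongs to 1 of its 2 events and is not seen in the other. The 141-base exon of HNRNPA3 (chromosome 2, 177217705 to 177217845), a nuclear RNA-binding protein, was kept by 5 and 1 and skipped by 3 and 1 in the siSTAMBPL1 libraries, and kept by 12 and 6 and skipped by 0 and 0 in the siNC libraries. Long-read transcripts that skip the HNRNPA3 exon were present in both siSTAMBPL1 libraries and in neither siNC library.

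NONO, an RNA-binding protein of paraspeckles, went the other way. Its 114-base exon (chromosome X, 71284984 to 71285097) was kept by 2 and 2 and skipped by 6 and 8 long-read transcripts in the siSTAMBPL1 libraries, and kept by 0 and 0 and skipped by 10 and 13 in the siNC libraries, a log2 change of 3.0 ± 0.351 (SE; limma adjusted p = 0.573). The 36-base exon of PIP5K1A, a kinase that makes phosphatidylinositol bisphosphate, was kept by 1 and 1 and skipped by 4 and 1 in the siSTAMBPL1 libraries, and kept by 0 and 0 and skipped by 9 and 5 in the siNC libraries. In NONO and PIP5K1A most long-read transcripts of either group skipped the exon, and long-read transcripts that keep it were present in both siSTAMBPL1 libraries and in neither siNC library.

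Over all frame-preserving exons tested, the groups lay apart with 317 higher and 294 lower in siSTAMBPL1, and over all events with 1781 higher and 1691 lower. The 10 largest separated changes, 8 lower and 2 higher, do not stand for that balance. The other lower ones were in YIPF1, a Golgi membrane protein, DHX34, an RNA helicase of nonsense-mediated decay, RHOT1, a mitochondrial GTPase, FANCA, a DNA repair protein, MINK1, a kinase of the germinal centre family, and EPB41. RHOT1 kept its 96-base exon (chromosome 17, 32209350 to 32209445) in 0 and 0 and skipped it in 3 and 3 long-read transcripts in the siSTAMBPL1 libraries, and kept it in 3 and 3 and skipped it in 4 and 1 in the siNC libraries. With another downstream exon RHOT1 kept it in 1 and 2 and skipped it in 3 and 3 in the siSTAMBPL1 libraries, and kept it in 2 and 2 and skipped it in 3 and 1 in the siNC libraries. FANCA kept its 129-base exon in 0 and 1 and skipped it in 3 and 2 in the siSTAMBPL1 libraries, and kept it in 11 and 5 and skipped it in 2 and 4 in the siNC libraries. The log2 changes of these 6 exons ran from -3.62 in YIPF1 to -2.93 in EPB41.

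The exons best covered in both forms had transcripts of each form in every library. CAST, the inhibitor of calpain proteases, had the most: its 57-base exon (chromosome 5, 96729153 to 96729209) was kept by 26 and 22 and skipped by 25 and 16 long-read transcripts in the siSTAMBPL1 libraries, and kept by 43 and 45 and skipped by 31 and 38 in the siNC libraries. The 321-base exon of PAM, an enzyme that amidates peptides, was kept by 17 and 12 and skipped by 15 and 10 in the siSTAMBPL1 libraries, and kept by 19 and 19 and skipped by 14 and 12 in the siNC libraries. HNRNPK, an RNA-binding protein of the nucleus, kept its 72-base exon in more transcripts than skip it, in 23 and 20 against 9 and 11 skipping transcripts in the siSTAMBPL1 libraries, and in 31 and 41 against 10 and 9 in the siNC libraries. The 108-base exon of BAG6, a chaperone of protein quality control, was kept by 7 and 6 and skipped by 10 and 6 in the siSTAMBPL1 libraries, and kept by 11 and 12 and skipped by 17 and 15 in the siNC libraries. EIF4G2, SUPT20H, ZNF410 and FIP1L1 were also among the 10 with the most transcripts in the rarer form.

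**Figure D5:**
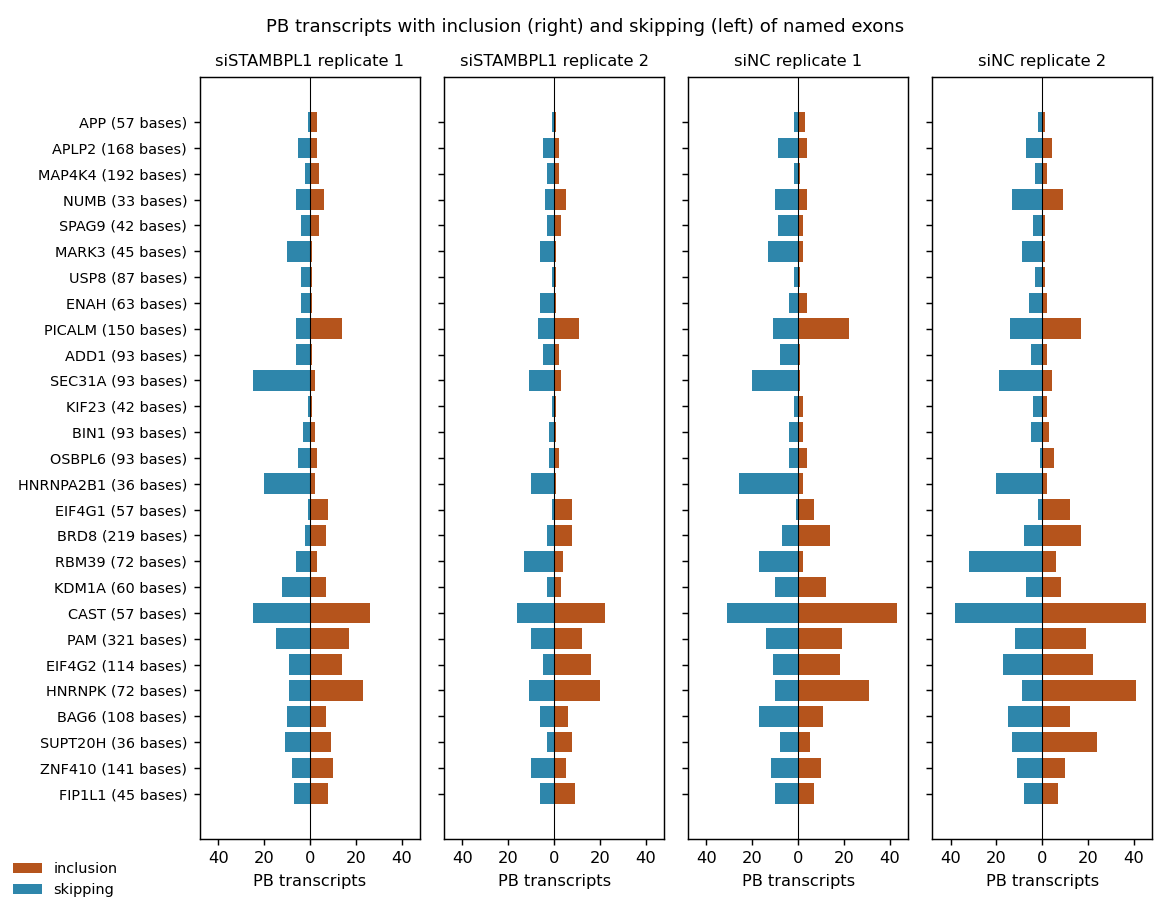
Long-read (PB) transcripts that keep (right of 0) or skip (left of 0) each named exon, in a panel per library, for exons of the gene lists with both forms in all 4 libraries and for the exons best covered in both forms. CAST has the longest bars in both directions (26 and 22 kept in siSTAMBPL1, 43 and 45 in siNC), and SEC31A and HNRNPA2B1 mostly skip their exon in every panel.

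Genes with known or likely in-frame alternatives were examined as 4 lists, 98 genes in all, of which 80 held a frame-preserving exon, with 337 events in all. The lists were chosen with earlier results of these data known. For each gene the exon with both forms in the most libraries was taken. Long-read transcripts showed both forms in at least 1 library for 59 of the 80 and in all 4 libraries for 19. In the fit, 37 of the 80 had enough long-read transcripts and 0 passed the limma threshold. Of the 37, 24 lay above and 13 below 0. Their median log2 change was 0.19, against 0.06 over frame-preserving exons and 0 over all events. The groups did not overlap for 8 higher and 5 lower, or 35.1%, against 31.5% of frame-preserving exons and 31.6% of all events. An unadjusted limma p under 0.05 was reached by 4, or 10.8%, against 9.43% of frame-preserving exons and 8.38% of all events.

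Among surface and secreted proteins, 15 of 22 genes held a frame-preserving exon. The 141-base exon of MET, the receptor of hepatocyte growth factor, encodes the segment next to the membrane that binds a ubiquitin ligase (chromosome 7, 116771849 to 116771989). It was kept by 1 and 3 long-read transcripts in the siSTAMBPL1 libraries and by 3 and 2 in the siNC libraries, and skipped by none in any library. MST1R, the related receptor RON, kept its 147-base exon in 7 and 0 and skipped it in 1 and 1 in the siSTAMBPL1 libraries, and kept it in 5 and 5 and skipped it in 4 and 5 in the siNC libraries. The 168-base exon of APLP2, a relative of the amyloid precursor protein, was kept by 3 and 2 and skipped by 5 and 5 in the siSTAMBPL1 libraries, and kept by 4 and 4 and skipped by 9 and 7 in the siNC libraries, a log2 change of 0.01 ± 0.366 (SE; limma adjusted p = 1). The 36-base exon of INSR, the insulin receptor, was listed in every library, with 1 long-read transcript in all, a skipping one in siNC replicate 2.

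Signalling proteins held a frame-preserving exon in 16 of 21 genes. SPAG9, a scaffold of JNK signalling and of motor proteins, kept its 42-base exon (chromosome 17, 51031681 to 51031722) in 4 and 3 and skipped it in 4 and 3 long-read transcripts in the siSTAMBPL1 libraries, and kept it in 2 and 1 and skipped it in 9 and 4 in the siNC libraries. Its log2 change of 1.76 ± 0.314 (SE) had an unadjusted limma p of 0.00845 and an adjusted p of 0.573. NUMB, an endocytic adaptor that opposes Notch, kept its 33-base exon in 6 and 5 and skipped it in 6 and 4 in the siSTAMBPL1 libraries, and kept it in 4 and 9 and skipped it in 10 and 13 in the siNC libraries. The log2 change was 1.01 ± 0.413 (SE; limma adjusted p = 0.620). In both genes the 2 siSTAMBPL1 ratios lay above the 2 siNC ratios.

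The kinases of the list gave overlapping groups. MAP3K7, the kinase TAK1 of TGF-beta and NF-kB signalling, kept its 81-base exon in 3 and 2 and skipped it in 3 and 0 in the siSTAMBPL1 libraries, and kept it in 3 and 1 and skipped it in 3 and 5 in the siNC libraries. MARK3, a microtubule-affinity regulating kinase, skipped its 45-base exon mostly, in 10 and 6 transcripts against 1 and 1 that keep it in the siSTAMBPL1 libraries, and in 13 and 9 against 2 and 1 in the siNC libraries. With another upstream exon MARK3 kept it in 3 and 1 and skipped it in 0 and 2 in the siSTAMBPL1 libraries, and kept it in 2 and 1 and skipped it in 3 and 2 in the siNC libraries. USP8, a deubiquitinase of endosomal cargo like STAMBP, kept its 87-base exon in 1 and 1 and skipped it in 4 and 1 in the siSTAMBPL1 libraries, and kept it in 1 and 1 and skipped it in 2 and 3 in the siNC libraries (log2 change 0.19 ± 0.702, SE; limma adjusted p = 0.941).

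Cytoskeleton and membrane traffic was the largest list, with frame-preserving exons in 26 of 30 genes. ENAH, which promotes the growth of actin filaments, kept its 63-base exon (chromosome 1, 225504991 to 225505053) in 1 and 1 and skipped it in 4 and 6 long-read transcripts in the siSTAMBPL1 libraries, and kept it in 4 and 2 and skipped it in 4 and 6 in the siNC libraries. The log2 change was -1.16 ± 0.639 (SE; limma adjusted p = 0.667), with the groups apart.

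PICALM and SEC31A had larger numbers and overlapping groups, while the clathrin light chains CLTA and CLTB had 1 and 0 long-read transcripts over all libraries and were not tested. PICALM, an adaptor of clathrin, kept its 150-base exon in 14 and 11 and skipped it in 6 and 7 in the siSTAMBPL1 libraries, and kept it in 22 and 17 and skipped it in 11 and 14 in the siNC libraries. SEC31A, a subunit of the COPII coat, mostly skipped its 93-base exon, in 25 and 11 transcripts against 2 and 3 that keep it in the siSTAMBPL1 libraries, and in 20 and 19 against 1 and 4 in the siNC libraries. Their log2 changes were 0.27 ± 0.445 and 0.41 ± 0.945 (SE), with limma adjusted p of 0.862 and 0.902.

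RNA-binding and nuclear proteins held a frame-preserving exon in 23 of 25 genes. RBM39, a splicing factor, kept its 72-base exon (chromosome 20, 35734186 to 35734257) in 3 and 4 and skipped it in 6 and 13 long-read transcripts in the siSTAMBPL1 libraries, and kept it in 2 and 6 and skipped it in 17 and 32 in the siNC libraries. Its log2 change was 1.33 ± 0.434 (SE), with an unadjusted limma p of 0.0480, an adjusted p of 0.590 and the groups apart. HNRNPA2B1 mostly skipped its 36-base exon, in 20 and 10 transcripts against 2 and 1 that keep it in the siSTAMBPL1 libraries, and in 26 and 20 against 2 and 2 in the siNC libraries. KDM1A, a histone demethylase, kept its 60-base exon in 7 and 3 and skipped it in 12 and 3 in the siSTAMBPL1 libraries, and kept it in 12 and 8 and skipped it in 10 and 7 in the siNC libraries (log2 change -0.58 ± 0.404, SE; limma adjusted p = 0.702). BRD8, a bromodomain protein, kept its 219-base exon in 7 and 8 and skipped it in 2 and 3 in the siSTAMBPL1 libraries, and kept it in 14 and 17 and skipped it in 7 and 8 in the siNC libraries. MBNL1, a regulator of alternative splicing, had this event of its 204-base exon on the siNC lists only, kept by 1 long-read transcript in each siNC library. In MEF2D of the same list, the event of a 129-base exon was on the siSTAMBPL1 lists only, skipped by 2 and 1. Listing in the siNC pair alone held for 3.52% of frame-preserving exons and 3.44% of all events, and in the siSTAMBPL1 pair alone for 1.03% and 1.09%.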

How the data were processed

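The authors deposited 1 list of alternative splicing events per library. Columns for gene, event, alternative transcripts and total transcripts make up each list, per the file headers. The deposited columns hold names in text, with no count, score or other quantity. The submitters' processing notes name hg38 as the build. The aligner and event caller were not given in the sources used.

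Exon length, form and the numbers of Ensembl and long-read (PB) transcripts were computed from these names, and events were matched between libraries by identifier. Libraries were compared by exact two-sided permutation, and frame-preserving with frame-shifting exons within a library by exact sign-flip permutation. Intervals are exact (Clopper-Pearson, 95%). Inclusion was fitted with limma 3.58.1 in R 4.3.3 on log2((inclusion + 0.5)/(skipping + 0.5)) over events of all types with at least 2 PB transcripts in each library, with Benjamini-Hochberg adjustment over all of them. That step was tested on simulated data, where planted changes had to be recovered only at transcript numbers well above the real ones. That requirement does not show which changes the fit can call at the real numbers, and no such result is given here. Symbols were assigned by position and strand from the RefSeq genes of GRCh38.p14: 10692 of 11931 Ensembl genes received 1 symbol. Named exons are the best covered exon of each list gene, the 5 per group with the most long-read transcripts among those listed in 1 group, the 10 largest separated changes, the 10 genes with the most exons and the 10 exons with the most transcripts in the rarer form. Members and gene lists were chosen with earlier results of these data known. Replicates with the same number did not deviate together (correlation 0.02 over all events fitted and -0.02 over frame-preserving exons), so the numbers were not taken as pairs. Some genes that these rules name are not reported here.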

Additional observations from a re-analysis of the deposited data

How the results depend on the processing

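Of 40 comparisons of a result with an alternative setting, 36 kept direction and side of the threshold. Among these, counting each long-read transcript once per exon left the inclusion share difference unchanged at 0.357 points, so it adds no check. Another, long-read transcripts in either form (2.09 points), is a different measure from the skipping form (0.88 points). For the permutation results only direction could change, since p cannot fall below 0.333 with 2 libraries against 2 or 0.125 with 4. The counts of exons listed in 1 group had no test. Per 1000 long-read transcripts the difference in the number of frame-preserving exons (siSTAMBPL1 minus siNC) was 117.377 in place of -673.5. Without single libraries it ran from -950.5 to -396.5. The difference in the frame-preserving share was -0.116 points without siSTAMBPL1 replicate 2 and 0.491 without siSTAMBPL1 replicate 1, the range over libraries left out, against 0.188 with all. The inclusion share difference ran from 0.137 to 0.577 points without single libraries and was 0.599 as a mean over exons. The difference between frame-preserving and frame-shifting exons in the skipping form ran from 0.812 to 1.01 points without single libraries and was -0.215 points within genes, an alternative added after the data were seen. The cause of these turns was not tested.

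With at least 2 long-read transcripts in total as the only filter, 357 of 6717 frame-preserving exons passed limma (smallest adjusted p = 4.0e-05) in place of 0, 189 higher and 168 lower. Among events of all types, 6486 of 131965 passed under that filter. Of the 357 exons, 341 had equal values within both groups and 260 had no long-read transcript in 1 of the groups. A spread of 0 within groups thus goes with the calls. The replicate block gave 0 calls and 113 at an unadjusted p under 0.05, against 183 without it. All other settings of the fit gave 0 calls too, with the smallest adjusted p from 0.377 to 0.587 over pseudocounts, filters and libraries left out. Depth is unknown, since the lists give no reads, and few long-read transcripts per exon limit what the fit can show.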

Other observations

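Some annotated forms were traced to a library through Ensembl transcripts as well. An Ensembl transcript was taken as not found in a library if an event it belongs to was missing there, and as found if it was the only transcript left to explain a listed event. A form was called found through a long-read transcript or a found Ensembl transcript, and not found when it had neither and all its Ensembl transcripts were not found. This rule was made after the data were seen. It left 63.1% and 63.0% of listed frame-preserving exons open in the siSTAMBPL1 libraries, and 63.3% and 64.0% in the siNC libraries. Both forms were found for 18.2% and 14.8% in the siSTAMBPL1 libraries, and for 20.5% and 20.3% in the siNC libraries.

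Among exons listed in all 4 libraries, a form found in both siSTAMBPL1 libraries and in neither siNC library was seen for 11 inclusion and 8 skipping forms. The reverse was seen for 36 inclusion and 35 skipping forms. Per 100 exons listed in all 4 libraries, the siSTAMBPL1 pattern held for 0.285 forms, against 0.311 among frame-shifting exons. The reverse held for 1.06, against 1.0 among frame-shifting exons. The rates thus stood near those of frame-shifting exons, and no such count over all events is given here. Pairs that mix the groups gave 12 to 18 inclusion and 11 to 26 skipping forms. Examples were picked after their values were seen. EPS8L2, a regulator of actin, kept its 69-base exon in 1 and 1 and skipped it in 6 and 2 long-read transcripts in the siSTAMBPL1 libraries, and kept it in 0 and 0 and skipped it in 12 and 6 in the siNC libraries. CAPRIN2, an RNA-binding protein, kept its 147-base exon in 3 and 1 and skipped it in 1 and 1 in the siSTAMBPL1 libraries, and kept it in 1 and 4 and skipped it in 0 and 0 in the siNC libraries. KDM5C, a histone demethylase, kept its 123-base exon in 4 and 4 and skipped it in 0 and 0 in the siSTAMBPL1 libraries, and kept it in 11 and 7 and skipped it in 1 and 1 in the siNC libraries. SLC3A2, the heavy chain of amino acid transporters, kept its 141-base exon in 0 and 0 and skipped it in 13 and 3 in the siSTAMBPL1 libraries, and kept it in 1 and 1 and skipped it in 12 and 12 in the siNC libraries. Each of these differences rests on 1 long-read transcript per library of a pair.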
